A study of Mus musculus with 9 samples.

Results

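Amino acid transporters were followed across primary mouse CD4+ T cells that carried a control vector or 1 of 2 forms of NFAT2. The group holds 10 genes chosen by symbol: Slc7a5, Slc3a2, Slc7a1, Slc7a6, Slc7a11, Slc1a4, Slc1a5, Slc38a1, Slc38a2 and Slc43a1. Of these, 9 were among the 16500 genes of the expression table and the expression of Slc7a11, the cystine and glutamate exchanger, was not analysed here. The cells came from C57BL/6 mice and were transduced with retrovirus in 3 groups: Control with the CTRL vector, NFAT2-CA with the NFAT2_CA vector and NFAT2-CARIT with the NFAT2_CARIT vector. Each group had 3 libraries of paired-end RNA sequencing. NFAT2 is the product of Nfatc1, a factor that calcium signals switch on through calcineurin. The CA form does not need that signal, and the RIT substitutions impair its joint binding with AP-1, a dimer of Fos and Jun proteins. The labels give no age, sorting step or share of transduced cells, and leave unsaid whether each library had its own animal or culture. The p-values therefore cover the spread among these 9 libraries, which may be technical.

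A dividing T cell cannot make essential amino acids and imports them through membrane carriers, many of which are induced when the cell is activated. SLC3A2 (CD98 heavy chain) is a membrane-spanning partner without transport activity of its own that carries light chains such as SLC7A5, SLC7A6 and SLC7A11 to the surface. SLC7A5 (LAT1) exchanges glutamine and other amino acids for leucine and other large neutral amino acids, which feed the mTORC1 kinase. SLC7A1 brings in arginine and lysine, SLC1A4 and SLC1A5 exchange small neutral amino acids and glutamine with sodium, SLC38A1 and SLC38A2 take up glutamine and alanine with sodium, and SLC43A1 moves large neutral amino acids without a heavy chain. Several of these genes are known targets of ATF4, the factor that responds to amino acid shortage, and of MYC.

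Levels are counts per 1000000 reads of the library (CPM), and means carry their SD over the 3 libraries of a group. Estimated depth was 19942000 to 38185200 reads per library, so that 10 CPM rest on 199 to 382 reads. Differences are log2 fold changes of CPM + 1 ± SE with the Benjamini-Hochberg adjusted p from limma over 9233 genes that reached 10 CPM in at least 3 libraries, and a gene was called at an adjusted p under 0.05. As a check of the labels, Nfatc1 stood at 188 to 228 CPM in Control, 336 to 395 CPM with NFAT2-CA and 240.5 to 253 CPM with NFAT2-CARIT, though the files do not say whether vector reads count towards it. The 10 CD4 T cell markers were all present, with Cd4 at 1571, 1620 and 1660 CPM on average in Control, NFAT2-CA and NFAT2-CARIT. Their sum was 10408 to 11011, 7412 to 7859 and 6939 to 7084 CPM. The decline from Control was carried by Thy1 (4748, 649 and 657 CPM). From NFAT2-CA to NFAT2-CARIT the sum fell while Thy1 did not. Of the 10, limma called 5 higher and 3 lower with NFAT2-CA, beside 31.6% and 40.5% of all tested genes. Cd3e (419.5, 950 and 706 CPM) and Cd3g (589.6, 861 and 614 CPM) were highest with NFAT2-CA, and Cd5 fell (518, 332 and 370 CPM). Summed B cell markers, nearly all Ighm, were 412 to 423, 206 to 211 and 182 to 205 CPM, and Cd79a, Cd79b and Cd22 each averaged at most 2.37 CPM. The 2 CD8 markers summed to 12.5 to 13.7, 28.4 to 30.8 and 22.6 to 24.03 CPM, with Cd8a at or below 1.69 CPM on average in each group. The 4 myeloid and dendritic markers listed of 9 summed to 11.6 to 13.3, 10.3 to 13.7 and 9.90 to 12.1 CPM, and the 2 NK markers listed of 4 to 8.33 to 10.3, 2.56 to 3.12 and 1.59 to 2.31 CPM. Within the myeloid and dendritic sum Itgam fell (7.98, 0.701 and 1.34 CPM on average) and H2-Eb1 rose (4.14, 10.6 and 7.77 CPM). Cd14 and Itgax averaged at most 1.08 CPM in any group. Alas2, the only erythroid or platelet marker listed of 6, was at most 0.528 CPM, and the 2 histone genes summed to 152 to 184, 146 to 159 and 120 to 125 CPM. The part of these other cells in the transporter results was not tested, and in bulk RNA fewer cells of a type and less RNA per cell cannot be told apart.

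RefSeq promoter windows, 250 bases before to 50 after an annotated start on GRCm38.p6, were found for 7 of the 10 transporter genes (9 windows). The windows of 3 genes that were higher with both NFAT2 forms and of 1 gene that was lower are shown so that the reader can see the start regions of genes that moved together. Capitals mark 3 motifs, searched on both strands: TGATGNAA (the core of the C/EBP-ATF response element, which ATF4 binds), CACGTG (the E-box that MYC binds) and TGANTCA (the AP-1 site).
Slc1a4, chr11:20332664-20332963, minus strand: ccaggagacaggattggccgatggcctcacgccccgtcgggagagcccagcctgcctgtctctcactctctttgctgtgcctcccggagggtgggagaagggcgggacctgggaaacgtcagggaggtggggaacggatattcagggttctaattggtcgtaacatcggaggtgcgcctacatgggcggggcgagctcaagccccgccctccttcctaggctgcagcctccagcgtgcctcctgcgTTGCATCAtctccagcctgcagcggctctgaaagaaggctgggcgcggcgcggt
Slc3a2, chr19:8713848-8714147, minus strand: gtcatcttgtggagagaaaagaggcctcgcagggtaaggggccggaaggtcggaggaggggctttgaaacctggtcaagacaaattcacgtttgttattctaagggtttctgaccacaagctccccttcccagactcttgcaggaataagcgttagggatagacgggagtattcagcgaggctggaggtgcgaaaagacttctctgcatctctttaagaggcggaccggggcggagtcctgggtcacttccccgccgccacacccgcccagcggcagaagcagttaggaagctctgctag
Slc7a1, chr5:148399855-148400154, minus strand: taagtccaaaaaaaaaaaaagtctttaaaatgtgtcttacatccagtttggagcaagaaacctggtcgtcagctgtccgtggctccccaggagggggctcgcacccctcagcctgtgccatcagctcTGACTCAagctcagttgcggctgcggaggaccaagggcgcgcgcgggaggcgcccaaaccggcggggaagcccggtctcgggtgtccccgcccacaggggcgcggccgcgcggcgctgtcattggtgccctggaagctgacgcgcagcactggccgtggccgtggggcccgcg
Slc7a6, chr8:106168604-106168903, plus strand: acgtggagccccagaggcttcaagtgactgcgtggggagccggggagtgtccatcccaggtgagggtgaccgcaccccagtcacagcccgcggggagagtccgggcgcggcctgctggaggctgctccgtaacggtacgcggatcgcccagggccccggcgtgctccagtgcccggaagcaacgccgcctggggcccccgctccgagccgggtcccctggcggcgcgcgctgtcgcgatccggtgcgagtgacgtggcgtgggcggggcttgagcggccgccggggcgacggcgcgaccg

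Slc1a4 held the ATF element in reverse orientation, TTGCATCA, starting at position -4 from the annotated start. Of 32851 promoter windows of the same length, 3.97% held that element on either strand, 7.15% held CACGTG and 7.81% held TGANTCA. The Slc7a1 window held TGACTCA at position -123. Neither the Slc3a2 nor the Slc7a6 window held any of the 3 motifs, and the Slc3a2 window lies inside the gene as the table lists it, so that other starts of that gene fall outside the window. The Slc7a11 window held the ATF element in both orientations, and Slc43a1 was the only member with CACGTG in a window. GGAAA, the NFAT core, was found in the windows of Slc7a11, Slc1a4 and the downstream start of Slc7a1, against 61.3% of all windows. TGANNNNGC, the core of the antioxidant response element, was found in at least 1 window of each of the 7 genes except Slc3a2, against 41.3% of all windows. It can overlap the ATF element, as in Slc7a11. These matches are letters in a window, not measured binding.

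The first comparison asks how active NFAT2 changed the transporters. With NFAT2-CA the 2 chains of the leucine carrier rose together, Slc7a5 4.45-fold and Slc3a2 2.89-fold on mean CPM, and the arginine carrier Slc7a1 rose 1.69-fold. The glutamine carriers Slc1a5, Slc38a1 and Slc38a2 and the light chain Slc7a6 went the other way and fell to between 0.721 and 0.864 of their Control level. Slc1a4, nearly silent in Control, reached 9.02 CPM. The second comparison asks the same for NFAT2 with impaired AP-1 cooperation. With NFAT2-CARIT the rises were 5.40-fold for Slc7a5, 4.36-fold for Slc3a2 and 2.28-fold for Slc7a1, and Slc1a5 and Slc7a6 fell to 0.638 and 0.587 of Control.

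In numbers, limma called 7 of the 7 transporters tested with NFAT2-CA, 3 higher and 4 lower, where 72.0% of all tested genes were called, 31.6% higher and 40.5% lower. It called 6 of 7 with NFAT2-CARIT, 3 higher and 3 lower, beside 75.4% of all genes, 32.1% higher and 43.3% lower, and the split of the transporters was 4 higher and 2 lower under TMM scaling. Over all tested genes TMM scaling gave 3289 higher and 3284 lower with NFAT2-CA in place of 2914 and 3736, and 3484 and 3464 with NFAT2-CARIT in place of 2962 and 4002. Shares of calls this close to the background say little about the transporters. A called change reached 2-fold for 2 of 7 with NFAT2-CA and for 3 of 7 with NFAT2-CARIT, beside 13.3% and 16.3% of all tested genes. The lowest library of one group lay above the highest of the other for 7 of 7 and 5 of 7 transporters, without overlap, beside 73.0% and 76.9% of all genes. The median log2 fold change was -0.21 with NFAT2-CA and 0.07 with NFAT2-CARIT, against -0.07 and -0.09 over all 9233 genes. The 2 comparisons share the Control libraries. The authors' deposited table, which gives an FDR for 16477 of the listed genes, calls 6 of the 9 listed transporters with NFAT2-CA, 4 higher and 2 lower, and 6 with NFAT2-CARIT, 4 higher and 2 lower, beside 21.8% and 25.6% of all listed genes.

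**Figure D1:**
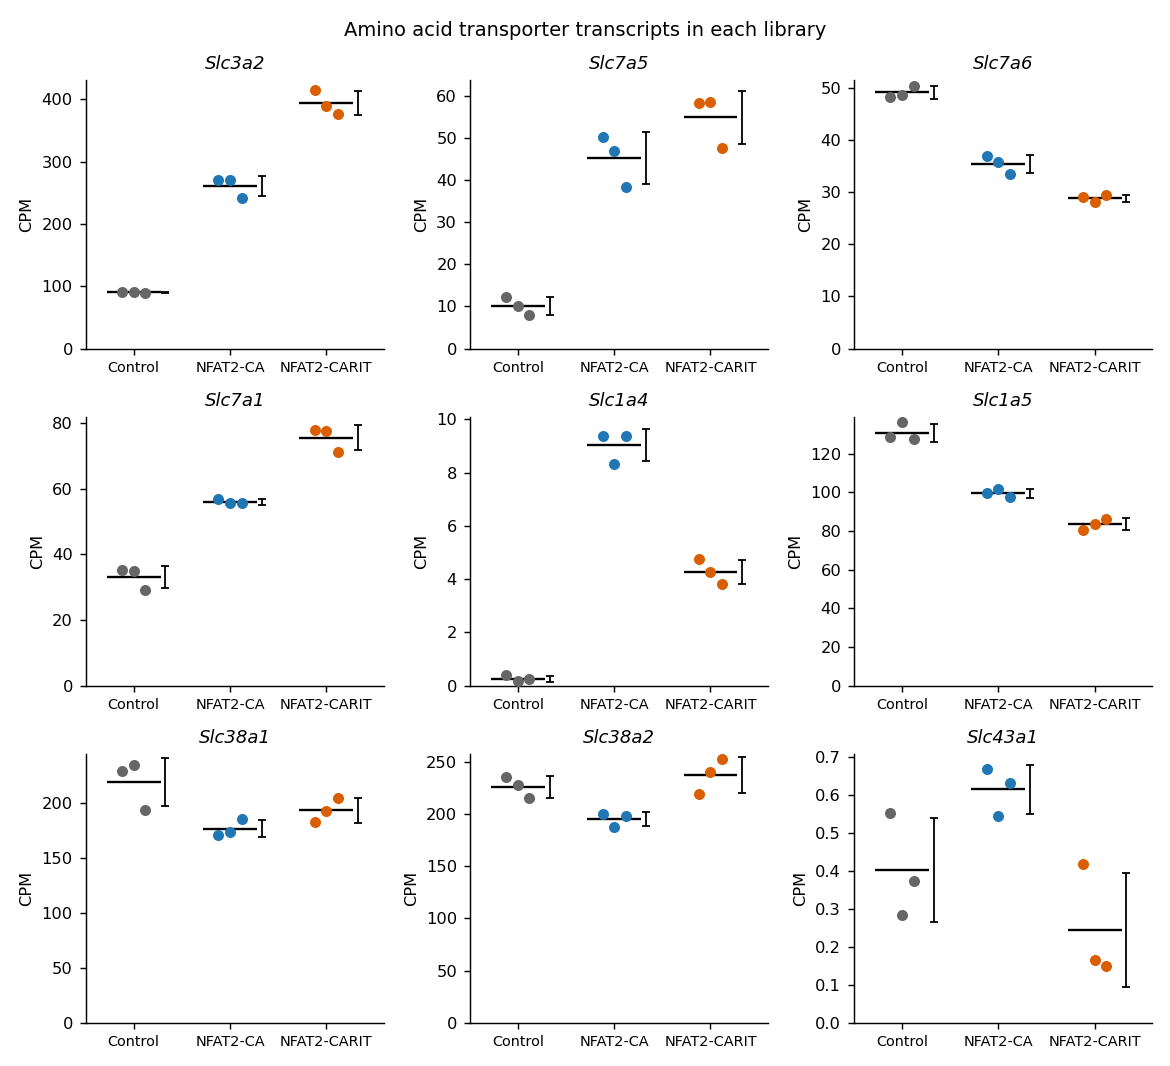
CPM of the 9 measured transporter genes in each library (points), with the group mean (line) and SD (bar beside the points, n = 3 libraries), for Control, NFAT2-CA and NFAT2-CARIT. Each panel starts at 0 and has its own scale. Slc3a2, Slc7a5, Slc7a1 and Slc1a4 are higher in every NFAT2 library than in any Control library, and Slc7a6 and Slc1a5 are lower.

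Slc3a2, the heavy chain, lies on chromosome 19 (8706882 to 8723370, minus strand, mm10). It stood at 91.2, 90.2 and 89.8 CPM in Control replicates 1, 2 and 3, at 271, 269.6 and 242 CPM in the NFAT2-CA libraries and at 415, 389.7 and 377 CPM with NFAT2-CARIT. The 3 groups did not overlap, and NFAT2-CARIT was the highest. Against Control the log2 fold change was 1.52 ± 0.06 with NFAT2-CA (adjusted p = 1.24e-12) and 2.11 ± 0.06 with NFAT2-CARIT (adjusted p = 1.83e-14). Mean levels were 90.4 ± 0.709, 261 ± 16.4 and 394 ± 19.3 CPM.

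Slc7a5, the LAT1 light chain, lies on chromosome 8 (121881150 to 121907695, minus strand). It stood at 12.3, 10.1 and 8.08 CPM in Control, at 50.3, 47.0 and 38.3 CPM in the NFAT2-CA libraries and at 58.4, 58.7 and 47.7 CPM with NFAT2-CARIT. Every NFAT2 library was above every Control library, and the libraries numbered 3 were the lowest of their group in all 3 groups. Relative to Control the log2 fold change was 2.06 ± 0.14 with NFAT2-CA (adjusted p = 2.64e-08) and 2.33 ± 0.14 with NFAT2-CARIT (adjusted p = 6.05e-09). The SE was the largest of the 7 tested transporters. In Control, Slc7a5 reached 10 CPM in only 2 of 3 libraries, so it passed the filter through the NFAT2 libraries.

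Slc7a6 encodes the y+LAT2 light chain, which exchanges arginine for neutral amino acids and sodium, and lies on the same chromosome (106168857 to 106198707, plus strand). Its values were 48.2, 48.7 and 50.5 CPM in Control, 36.9, 35.8 and 33.5 CPM in the NFAT2-CA libraries and 29.1, 28.03 and 29.4 CPM with NFAT2-CARIT. The 3 groups did not overlap, in the order opposite to Slc3a2. On the log2 scale the change was -0.46 ± 0.06 with NFAT2-CA (adjusted p = 6.09e-06) and -0.75 ± 0.06 with NFAT2-CARIT (adjusted p = 1.65e-08). The authors' deposited table gives an FDR of 0.0999 for the first and 0.00182 for the second.

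Levels of the chains were compared per kb of annotated exon. In Control, Slc7a6 transcripts (10.8 ± 0.256 CPM per kb) outnumbered those of Slc7a5 (2.74 ± 0.572 CPM per kb). With NFAT2-CA the order turned, at 7.75 ± 0.376 for Slc7a6 and 12.2 ± 1.67 for Slc7a5, and with NFAT2-CARIT the values were 6.31 ± 0.157 and 14.8 ± 1.70 CPM per kb. Among the 4 measured light-chain genes that pair with Slc3a2 (Slc7a5, Slc7a6, Slc7a7 and Slc7a8), Slc7a5 made up 16.3% to 23.6% of transcripts per length in Control libraries, 56.2% to 60.8% with NFAT2-CA and 63.6% to 68.9% with NFAT2-CARIT. These are shares of RNA per exon length, not of protein.

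The heavy chain gained more than the 4 measured light chains together. Their sum lacks the light chains Slc7a10 and Slc7a11, which were not among the 16500 listed genes. The summed light chains were 13.7 ± 0.388 CPM per kb in Control, 20.7 ± 2.06 with NFAT2-CA and 22.1 ± 1.65 with NFAT2-CARIT, while Slc3a2 was 25.6 ± 0.201, 73.9 ± 4.66 and 112 ± 5.48 CPM per kb. The ratio of Slc3a2 to the light-chain sum was 1.83 to 1.90 in Control, 3.44 to 3.72 with NFAT2-CA and 4.76 to 5.29 with NFAT2-CARIT, with no overlap between the groups. Against Slc7a5 alone the ratio was 7.77 to 11.7 in Control, 5.66 to 6.63 with NFAT2-CA and 6.98 to 8.31 with NFAT2-CARIT, so that Control and NFAT2-CARIT overlapped. Slc7a7 and Slc7a8, which encode the y+LAT1 and LAT2 light chains, were near silent. The Slc7a7 values were 0.767, 0.41 and 0.458 CPM in Control, against 1.34, 1.72 and 1.35 CPM in the NFAT2-CA libraries and 1.34, 2.18 and 1.86 CPM in the NFAT2-CARIT libraries. Slc7a8 was listed at 0, 0 and 0.125 CPM in Control, and was 1.34, 2.18 and 1.64 CPM in the NFAT2-CA libraries and 1.70, 2.99 and 1.80 CPM with NFAT2-CARIT.

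**Figure D2:**
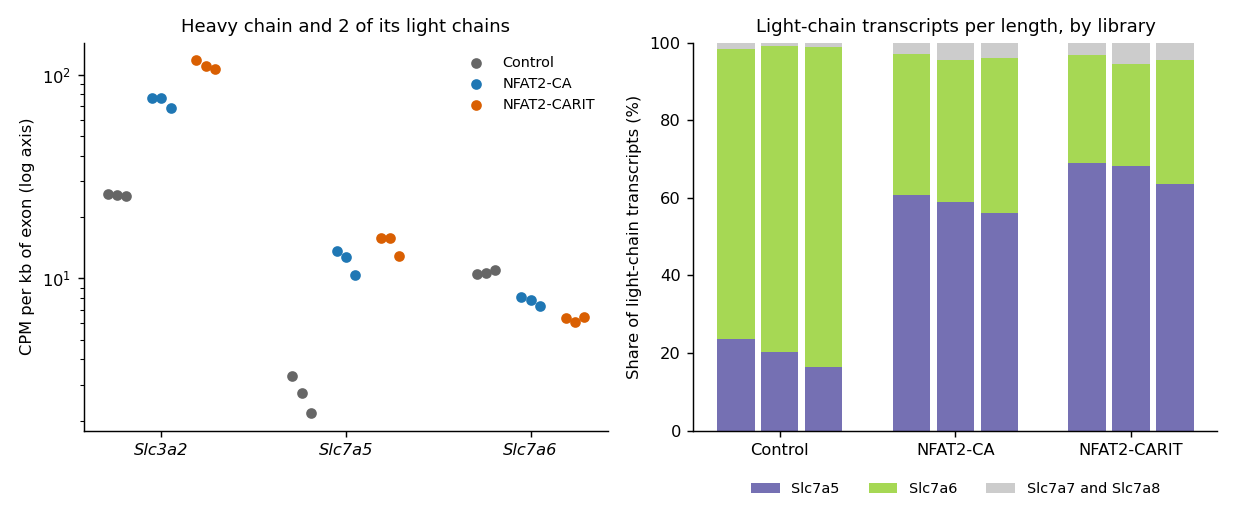
Left, CPM per kb of exon (log axis) of the heavy chain Slc3a2 and the light chains Slc7a5 and Slc7a6 in each library (points, coloured by group). Right, share of light-chain transcripts per length (%) in each library (bars, in replicate order) for Slc7a5, Slc7a6 and the sum of Slc7a7 and Slc7a8. Slc7a5 goes from at most 23.6% in Control to at least 56.2% with NFAT2-CA and 63.6% with NFAT2-CARIT.

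Slc7a1, the arginine and lysine carrier on chromosome 5 (148327410 to 148399905, minus strand), stood at 35.3, 34.9 and 29.2 CPM in Control, 57.0, 55.6 and 55.6 CPM in the NFAT2-CA libraries and 78.0, 77.6 and 71.2 CPM with NFAT2-CARIT. The groups did not overlap and followed the order of Slc3a2. The log2 fold change was 0.75 ± 0.07 with NFAT2-CA (adjusted p = 1.30e-07) and 1.17 ± 0.07 with NFAT2-CARIT (adjusted p = 4.01e-10).

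Slc1a4, which encodes the exchanger ASCT1 for alanine, serine, cysteine and threonine, lies on chromosome 11 (20302180 to 20332714, minus strand). It stood at 0.383, 0.158 and 0.25 CPM in Control, about 9, 5 and 6 reads, at 9.37, 8.34 and 9.36 CPM in the NFAT2-CA libraries and at 4.74, 4.26 and 3.81 CPM with NFAT2-CARIT. The 3 groups did not overlap, and NFAT2-CA was the highest, unlike Slc3a2, Slc7a5 and Slc7a1. Mean CPM was 34.3-fold above Control with NFAT2-CA and 16.2-fold with NFAT2-CARIT. The gene stayed under 10 CPM and so was not tested among the 9233 genes. With the filter at 1 CPM, which it passed only through the NFAT2 libraries, limma over 13096 genes gave 2.99 ± 0.13 (adjusted p = 9.09e-12) and 2.06 ± 0.13 (adjusted p = 8.51e-10), where 65.5% and 70.3% of genes were called. The added 1 CPM sets the size of these log2 values, with 3.65 in place of 2.99 when 0.5 was added.

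Slc1a5, its relative ASCT2 and a main glutamine importer of T cells, lies on chromosome 7 (16781340 to 16798275, plus strand). Its values were 129, 136 and 128 CPM in Control, 99.5, 102 and 97.4 CPM in the NFAT2-CA libraries and 80.4, 83.8 and 86.5 CPM with NFAT2-CARIT. Each group lay apart from the others, with Control highest. The log2 fold change was -0.39 ± 0.06 with NFAT2-CA (adjusted p = 9.04e-06) and -0.64 ± 0.06 with NFAT2-CARIT (adjusted p = 2.22e-08). The 2 relatives thus differed in direction, Slc1a4 higher and Slc1a5 lower with both vectors.

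Slc38a1 and Slc38a2, the sodium-coupled carriers SNAT1 and SNAT2, are neighbours on chromosome 15 (96571418 to 96642914 and 96687392 to 96699731, minus strand). Slc38a1 stood at 229, 235 and 194 CPM in Control, 172, 173 and 186 CPM in the NFAT2-CA libraries and 183, 193 and 205 CPM with NFAT2-CARIT. The NFAT2-CA libraries lay below Control, whereas the NFAT2-CARIT libraries overlapped it. The log2 fold change was -0.30 ± 0.07 with NFAT2-CA (adjusted p = 0.00132) and -0.18 ± 0.07 with NFAT2-CARIT (adjusted p = 0.036). The second call rests on single libraries, with an adjusted p of 0.127 without Control replicate 1, 0.162 without Control replicate 2, 0.138 without NFAT2-CARIT replicate 1 and 0.0837 without NFAT2-CARIT replicate 2, and a range of 0.000846 to 0.263 over all alternatives. For Slc38a1 the authors' deposited table gives an FDR of 0.0444 with NFAT2-CA and 0.306 with NFAT2-CARIT.

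Slc38a2, which amino acid shortage is known to induce, stood at 235, 227 and 215 CPM in Control, 200.2, 187 and 198 CPM in the NFAT2-CA libraries and 219, 240.0 and 252 CPM with NFAT2-CARIT. The NFAT2-CA libraries were the lowest, and NFAT2-CARIT overlapped Control. The log2 fold change was -0.21 ± 0.06 with NFAT2-CA (adjusted p = 0.00666). With NFAT2-CARIT it was 0.07 ± 0.06, with a 95% interval of -0.06 to 0.20 (adjusted p = 0.325), but 0.16 with TMM scaling (adjusted p = 0.0255). For Slc38a2 the authors' deposited table calls neither difference, with an FDR of 0.168 with NFAT2-CA and 0.756 with NFAT2-CARIT.

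Slc43a1, the LAT3 carrier on chromosome 2 (84838850 to 84863595, plus strand), was close to the floor in every group, with 3 to 18 reads per library. Its values were 0.553, 0.284 and 0.375 CPM in Control, 0.669, 0.545 and 0.633 CPM in the NFAT2-CA libraries and 0.419, 0.165 and 0.15 CPM with NFAT2-CARIT. A count of 3 reads equals 0.0786 to 0.15 CPM, and limma without a filter gave adjusted p values of 0.227 and 0.303 against Control, so that no difference from Control was detectable at this depth. The NFAT2-CARIT libraries all lay below the NFAT2-CA libraries, but the difference did not pass (-0.38 ± 0.14, adjusted p = 0.0644).

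**Figure D3:**
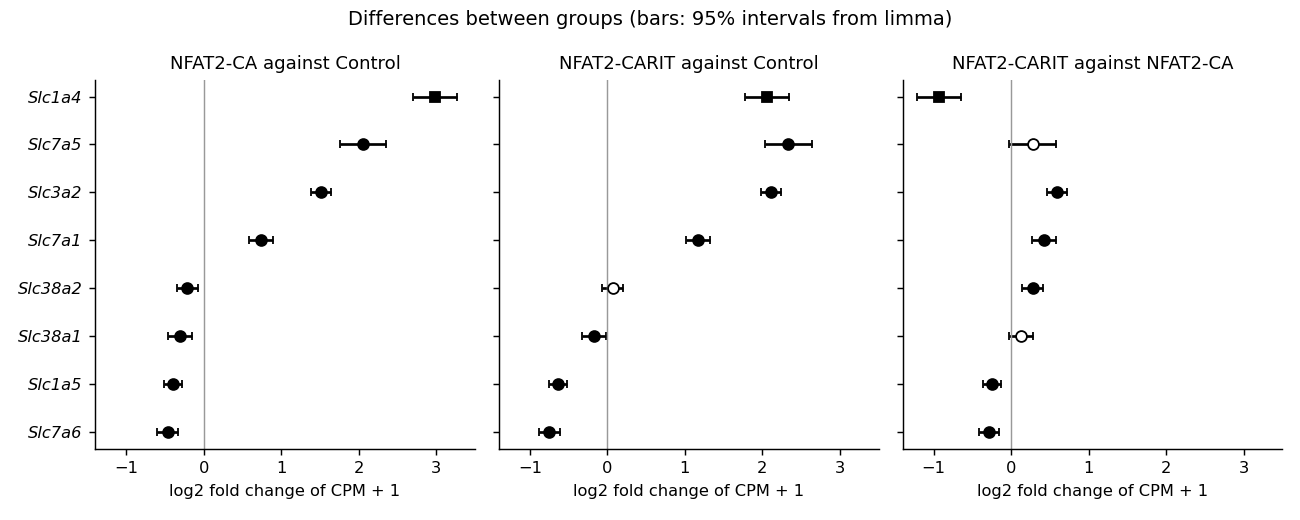
Log2 fold change of CPM + 1 with its 95% interval from limma, for the 7 tested transporters (circles) and Slc1a4 from the fit with the filter at 1 CPM (squares), in the 3 comparisons. Filled symbols are called, open ones are not. Slc7a5, Slc3a2 and Slc7a1 lie above 0 and Slc1a5 and Slc7a6 below 0 against Control with both vectors, and Slc7a5 and Slc38a1 are open between the vectors.

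The third comparison, NFAT2-CARIT against NFAT2-CA, asks which transporters differ between the active form and the form with impaired AP-1 cooperation. The 2 groups also differed in Nfatc1, at 336 to 395 CPM with NFAT2-CA and 240.5 to 253 CPM with NFAT2-CARIT. The share of transduced cells is not given. The part of either in the transporter differences was not tested. Slc3a2 was 1.51-fold and Slc7a1 1.35-fold higher with NFAT2-CARIT, and Slc38a2 was 1.22-fold higher, while Slc7a6 and Slc1a5 stood at 0.814 and 0.839 of their NFAT2-CA level. Slc1a4 was 2.11-fold higher with NFAT2-CA. For Slc3a2, Slc7a1, Slc7a6 and Slc1a5 the level with NFAT2-CARIT was thus further from Control than with NFAT2-CA, and for Slc1a4 and Slc38a2 it was nearer to Control. For Slc38a2 this depends on the scaling. Under TMM scaling its log2 fold changes against Control were -0.15 with NFAT2-CA and 0.16 with NFAT2-CARIT. Between the vectors the log2 differences were 0.59 ± 0.06 for Slc3a2 (adjusted p = 1.51e-06), 0.42 ± 0.07 for Slc7a1 (adjusted p = 0.000356) and 0.28 ± 0.06 for Slc38a2 (adjusted p = 0.00265). They were -0.29 ± 0.06 for Slc7a6 (adjusted p = 0.00232), -0.25 ± 0.06 for Slc1a5 (adjusted p = 0.00239) and, with the filter at 1 CPM, -0.93 ± 0.13 for Slc1a4 (adjusted p = 8.19e-05).

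Slc7a5 did not pass between the vectors, with a difference of 0.28 ± 0.14, a 95% interval of -0.02 to 0.58 and an adjusted p of 0.144. Slc38a1 did not pass either, at 0.13 with an interval of -0.03 to 0.28 (adjusted p = 0.187). In all, 5 of 7 tested transporters were called, 3 higher and 2 lower, where 34.0% of all tested genes were called, 15.1% higher and 18.9% lower (1674 higher and 1526 lower under TMM scaling, in place of 1394 and 1748), and none changed 2-fold, as did 1.26% of all genes. Libraries did not overlap for 5 of 7, beside 49.0% of all genes. The authors' deposited table calls only Slc3a2 among the 9 listed transporters (FDR 6.94e-07), beside 2.84% of listed genes, and gives FDRs of 0.373 for Slc7a1, 0.207 for Slc38a2 and 0.857 for Slc1a4.

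The order of the 9 genes per exon length differed between the groups. In Control Slc1a5 was highest at 31.4 ± 1.12 CPM per kb, followed by Slc3a2 (25.6) and Slc38a2 (25.5), which overlapped each other, then Slc38a1 (12.7), Slc7a6 (10.8), Slc7a1 (2.87) and Slc7a5 (2.74), of which the last pair overlapped, and Slc43a1 (0.0706) and Slc1a4 (0.0671), which also overlapped. With NFAT2-CA Slc3a2 was highest, at 73.9 CPM per kb, ahead of Slc1a5 (23.8) and Slc38a2 (22.1), and Slc7a5 (12.2) overlapped Slc38a1 (10.3). With NFAT2-CARIT Slc3a2 was at 112 CPM per kb, followed by Slc38a2 (26.8), Slc1a5 (20.0), Slc7a5 (14.8) and Slc38a1 (11.2), and Slc7a1 (6.56) overlapped Slc7a6 (6.31). The order of some neighbours depends on the length used: over the longest protein-coding transcript, Slc38a2 led in Control at 48.4 CPM per kb and Slc38a1 stood above Slc7a5 with both vectors. Slc3a2 was highest with both vectors under either length. The 9 genes together summed to 715 to 783 CPM in Control, 860 to 897 CPM with NFAT2-CA and 1068 to 1075 CPM with NFAT2-CARIT. Of the mean sums of 760, 879 and 1072 CPM, Slc3a2 alone made up 90.4, 261 and 394 CPM. The sums therefore do not stand for a general rise. Of the 7 tested transporters, 3 were called higher and 4 lower with NFAT2-CA, and 3 higher and 3 lower with NFAT2-CARIT.

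Among 9233 tested genes, those nearest to Slc7a5 in the pair of log2 fold changes against Control were Espl1, the separase of sister chromatids (2.04 and 2.33, at a distance of 0.019), Top2a, a DNA topoisomerase (2.08 and 2.36, at 0.032), and Bhlhe40, a transcription factor of activated T cells (2.09 and 2.35, at 0.035). Nearest to Slc38a1 were Ier5 (-0.30 and -0.17), Slmap (-0.31 and -0.17) and Fancm (-0.31 and -0.18), each within 0.009. The distance is Euclidean over 2 differences that share the Control libraries, with 9 libraries in all, and describes values only.

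The counts of the related gene lists stand beside 31.6% higher and 40.5% lower of all tested genes with NFAT2-CA and 32.1% and 43.3% with NFAT2-CARIT. Of 29 other amino acid transporters of the cell surface, 13 were listed and 2 were tested, both lower with both vectors. With the filter at 1 CPM, 10 were tested, 5 higher and 5 lower with NFAT2-CA and 4 higher and 4 lower with NFAT2-CARIT, beside 29.0% and 36.5% and 29.2% and 41.1% of all genes. Slc43a2, the LAT4 carrier of large neutral amino acids, averaged 83.3 ± 5.44 CPM in Control, 73.7 ± 4.39 CPM with NFAT2-CA and 46.1 ± 3.24 CPM with NFAT2-CARIT, with log2 fold changes of -0.17 (adjusted p = 0.0353) and -0.84 (adjusted p = 1.52e-08). The taurine carrier Slc6a6 averaged 135 ± 11.7, 82.4 ± 2.44 and 94.1 ± 3.99 CPM, with -0.70 and -0.51. Among those untested at the 10 CPM filter, the glycine carrier Slc6a9 was at 0, 0.16 and 0.0418 CPM in Control and between 2.99 and 4.38 CPM in the NFAT2 libraries. Slc3a1, the heavy chain of cystine transport in kidney, was at 1.23 to 1.51 CPM in Control and at most 0.501 CPM in the NFAT2 libraries.

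Carriers of the inner compartments were counted apart. Of 8 tested lysosomal and vesicular transporters, 1 rose, 4 fell and 3 did not pass with NFAT2-CA, and 1 rose, 3 fell and 4 did not pass with NFAT2-CARIT, where 72.0% and 75.4% of all tested genes were called. The glutamine and asparagine carrier Slc38a7 averaged 11.9, 7.58 and 7.70 CPM in Control, NFAT2-CA and NFAT2-CARIT, and entered the test through Control alone. The tryptophan and proline carrier Slc36a4 averaged 26.01, 30.8 and 19.7 CPM, higher than Control with NFAT2-CA (0.24, adjusted p = 0.0157) and lower with NFAT2-CARIT (-0.38, adjusted p = 0.000477). Ctns, the cystine exporter of lysosomes, and Slc15a4, a histidine and peptide carrier, fell with NFAT2-CA by 0.44 and 0.40 on the log2 scale. Of 7 tested mitochondrial carriers, 2 rose and 5 fell with NFAT2-CA, and 1 rose and 6 fell with NFAT2-CARIT, beside 40.5% and 43.3% of all genes lower. They included the ornithine carrier Slc25a15 (12.8, 7.31 and 4.43 CPM), which also reached 10 CPM in Control alone, the aspartate and glutamate carrier Slc25a12 (102, 73.5 and 60.7 CPM), the branched-chain carrier Slc25a44 (26.04, 14.9 and 17.1 CPM), and the glycine carrier Slc25a38, which rose (17.003, 26.2 and 28.4 CPM).

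Genes that sense amino acids upstream of mTORC1 moved in both directions. Of 39 names in the list, 37 were listed in the file. Of 33 tested, 7 rose, 15 fell and 11 did not pass with NFAT2-CA, and 9 rose, 17 fell and 7 did not pass with NFAT2-CARIT. The median log2 fold changes were -0.09 and -0.23, beside -0.07 and -0.09 over all genes, and the shares of all genes lower were 40.5% and 43.3%. The arginine sensor gene Castor1 and its paralogue Castor2 went opposite ways, Castor1 from 88.6 ± 4.03 CPM in Control to 39.6 ± 1.53 and 44.0 ± 3.97 CPM, and Castor2 from 27.7 ± 4.85 to 54.6 ± 4.28 and 60.2 ± 1.16 CPM. Sec13, a subunit of the GATOR complex and of vesicle coats, averaged 45.03, 124 and 118 CPM, and Fnip1, a folliculin partner, 72.7, 115 and 142 CPM.

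In the list of glutamine and branched-chain amino acid use, 7 of 14 tested genes rose, 5 fell and 2 did not pass with NFAT2-CA, and 7 rose and 7 fell with NFAT2-CARIT, beside 31.6% and 32.1% of all genes higher. Asns, the asparagine synthetase, went from 2.96 ± 0.181 CPM to 20.8 ± 2.21 and 25.8 ± 3.89 CPM, and Bcat1, the cytosolic branched-chain transaminase that acts on leucine, from 3.78 ± 0.892 CPM to 25.0 ± 2.61 and 17.5 ± 0.539 CPM. Both reached 10 CPM in the NFAT2 libraries alone and entered the test through their rise. Got1, the cytosolic aspartate transaminase, averaged 41.1, 138 and 129 CPM, and Psat1, a serine synthesis enzyme, 25.2, 99.0 and 111 CPM. Of 11 tested cystine and glutathione genes, 2 rose, 5 fell and 4 did not pass with NFAT2-CA, and 3 rose, 5 fell and 3 did not pass with NFAT2-CARIT, beside 40.5% and 43.3% of all genes lower. The 2 subunits of glutamate cysteine ligase, the first enzyme of glutathione synthesis, both fell, Gclc from 31.5 ± 0.288 CPM to 15.0 ± 1.79 and 13.8 ± 0.838 CPM and Gclm from 20.0 ± 2.20 CPM to 11.5 ± 0.974 and 8.99 ± 0.924 CPM. Hmox1, the haem oxygenase, averaged 3.47, 11.98 and 9.32 CPM. Ggt1, a glutathione-cleaving surface enzyme, was at 3.53 and 3.90 CPM in Control and NFAT2-CA and at 21.7 ± 1.78 CPM with NFAT2-CARIT (2.32 ± 0.11 against Control, adjusted p = 1.51e-11). Hmox1 reached 10 CPM in NFAT2 libraries alone, and Ggt1 in NFAT2-CARIT libraries alone, so both entered the test through their high groups.

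Factors known to act on transporter genes were called at a share near that of all genes. Of 22 tested, 11 rose, 5 fell and 6 did not pass with NFAT2-CA, and 10 rose, 6 fell and 6 did not pass with NFAT2-CARIT, beside 72.0% and 75.4% of all genes called. Myc went from 107 ± 3.54 CPM in Control to 36.5 ± 1.54 CPM with NFAT2-CA (-1.52 ± 0.06, adjusted p = 1.17e-12) and 30.8 ± 0.543 CPM with NFAT2-CARIT (-1.76 ± 0.06, adjusted p = 1.73e-13). Mxi1, a repressor that shares its partner MAX, averaged 144, 328 and 298 CPM. Atf4, chosen after its values were seen, went from 255 ± 12.8 CPM to 558 ± 22.4 and 549 ± 20.9 CPM and did not pass between the vectors (-0.02, adjusted p = 0.791). The related stress factors Atf3 (5.47, 57.1 and 34.5 CPM) and Atf5 (4.74, 9.45 and 14.4 CPM) were called higher with both vectors, and both reached 10 CPM in NFAT2 libraries alone.

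**Figure D4:**
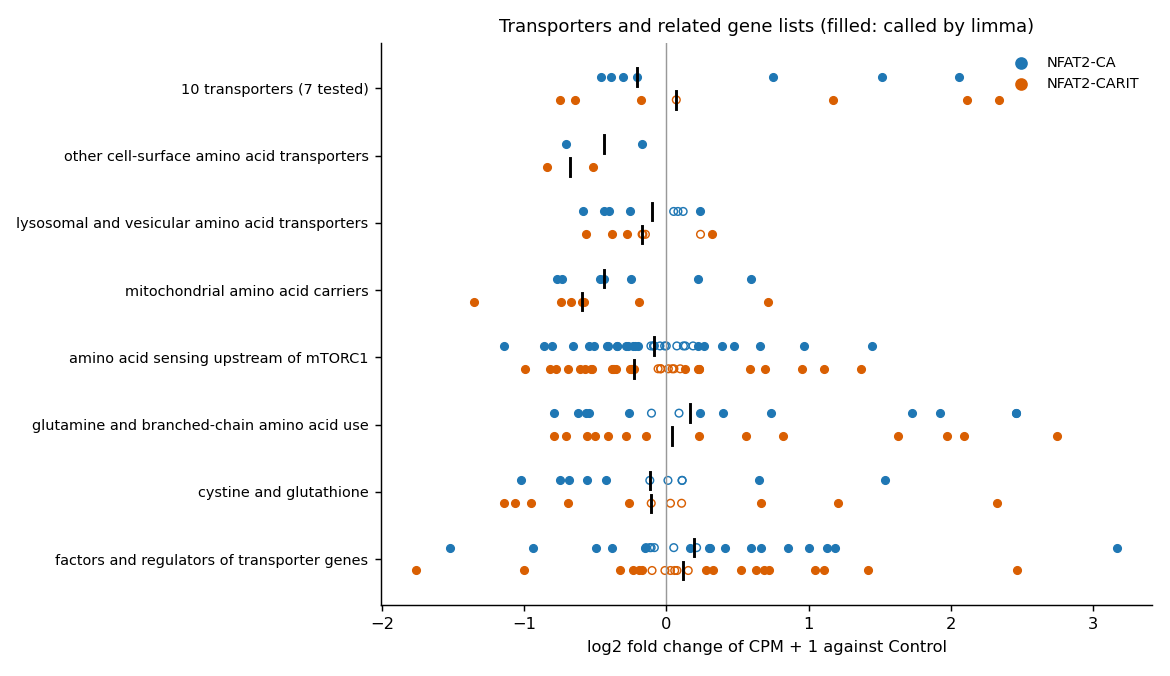
Log2 fold change of CPM + 1 against Control for each tested gene (points) of the 10 transporters and 7 related lists, with NFAT2-CA in blue and NFAT2-CARIT in orange. Filled points are called by limma and black ticks are medians. The transporters spread from -0.75 to 2.33, with medians of -0.21 with NFAT2-CA and 0.07 with NFAT2-CARIT.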

How the data were processed

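Per the labels' protocols, RNA went through a column kit and both ends of the fragments were read. The deposited expression values are in CPM: each library sums to 1000000 plus the 0.0001 that the authors added to each of 16500 values, both checked on the file. The authors' deposited table holds for each comparison the p-value, the FDR, the ratio and the log2 ratio, and DESeq2, Partek 10 and mm10 are named by the submitters' processing notes. Which aligner, quantifier, annotation and strand setting were used is not given in the sources used here. Of the listed genes, 16107 (97.6%) overlap a GENCODE M21 gene of the same name and strand, and the 9 measured transporters share no exon base with another annotated gene. Coordinates are those of the deposited files.

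Depth was estimated from the spacing of low values. Of values up to 1 CPM, 81.4% to 84.5% were whole reads within 0.1 read, under the 95% set for rebuilding counts, so no count test was run. Floors cover counting error alone. Replicate pairs were not duplicates: their median chi-square per gene was 1.32 to 3.48, against 0.455 from sampling alone. Group means of log2(CPM + 1) were fitted to all 9 libraries with limma 3.58.1 (R 4.3.3), using trend and robust empirical Bayes, and were checked on simulated data. Python 3.11.15, NumPy 2.4.6, pandas 2.3.3 and matplotlib 3.10.9 read the files and drew the figures. Levels per kb used the union of GENCODE exons.

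All transporters were named. Of each related list, up to 4 called genes with the largest change were named, and for Slc7a5 and Slc38a1 the 3 genes nearest in both differences against Control, which could not be given for Slc7a11. Nfe2l2 is in 2 lists. Transporters and lists were chosen with earlier results of these data known. Alternatives were pseudocounts of 0.5 and 5, a filter of 1 CPM or none, TMM factors, quantile normalization, plain empirical Bayes, only the 6 libraries compared, a replicate block and leaving out each library.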

Additional observations from a re-analysis of the deposited data

How the results depend on the processing

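Of 378 values of the 7 tested transporters under 18 alternatives, 368 kept their direction and their side of the threshold, 8 lost a call, 2 gained one and 0 reversed. All 8 losses were of Slc38a1 with NFAT2-CARIT against Control: besides the 4 libraries named in the report, it did not pass with TMM factors (-0.09, adjusted p = 0.263), with plain empirical Bayes (adjusted p = 0.0633), with the replicate block (adjusted p = 0.0633) and with only the 6 libraries compared (adjusted p = 0.0534). The number of called transporters stayed between 7 and 8 with NFAT2-CA, 5 and 7 with NFAT2-CARIT and 5 and 6 between the vectors. Replicate numbers showed no clear pairing of the libraries: deviations of same-numbered libraries correlated at -0.24 to 0.31, and 2 of 9 libraries correlated best with their own number. The labels do not say whether same-numbered libraries were handled together, and 3 libraries per group are too few for these correlations to decide. With the replicate block, Slc7a5 passed between the vectors (0.28, adjusted p = 0.0138), 7, 5 and 6 transporters were called in the 3 comparisons, and besides this gain and the loss of Slc38a1 no call changed. Chosen after seeing the data, the length of the longest protein-coding transcript put the ratio of Slc3a2 to Slc7a5 at 11.4 in Control, 7.27 with NFAT2-CA and 9.02 with NFAT2-CARIT, in place of 9.60, 6.11 and 7.58. Depth limits Slc43a1 and the Control level of Slc1a4.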
